A study of Mus musculus with 6 samples.

Results

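The transcripts described here were 10 genes of retinal ganglion cells (RGCs) and their axons, given as a list of names with no threshold on their values, out of 25755 genes measured in the optic nerve. They were the RGC identity genes Rbpms, Sncg, Thy1, Pou4f1 and Slc17a6, the neurofilament genes Nefl, Nefm and Nefh, and the axon growth genes Gap43 and Stmn2. These genes, and the gene lists set beside them, were chosen with earlier results of these data known. RNA of whole optic nerves was sequenced in bulk from 3 mice with sham surgery (mice 1 to 3) and 3 mice with bilateral optic nerve crush, called ON-CR (mice 4 to 6). The sample labels name 1 mouse for each library. All 6 mice, controls included, were Nf1flox/flox; hGFAP-Cre, in which Cre recombinase under the human GFAP promoter deletes Nf1 in neuroglial progenitors and the cells descended from them. Surgery was done at 6 weeks of age and nerves were taken at 12 weeks, given as 3 months in the sample labels. The question this comparison addresses is which RGC and axon transcripts differ in the nerve after the crush.

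RGC cell bodies lie in the retina, and only their axons run in the optic nerve, where the nuclei belong to glia, blood vessel cells, meningeal cells and immune cells. Neurofilaments are the intermediate filaments of large axons, built from a light (Nefl), a medium (Nefm) and a heavy (Nefh) chain together with alpha-internexin, and they set axon calibre. Gap43 and Stmn2 encode growth cone proteins that neurons make while axons extend or regrow. When an optic nerve is crushed, the axon beyond the injury degenerates and many RGCs die. In a bulk sample, fewer cells of a type and less RNA per cell cannot be told apart.

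The libraries held between 17413958 and 23620883 estimated reads, and the deposited normalized value of 1 read lay between 0.885 and 1.06, so a value here is close to a number of reads. All 10 transcripts were above the value of 3 reads in every library. The library of ON-CR mouse 5 stood apart in neuronal transcripts, so the fold changes of the 10 transcripts are given with and without it. The sham libraries had low Xist (2.14 to 30.9) and high Ddx3y (1291 to 1645), whereas Xist was 2708 to 6357 in the ON-CR libraries and Ddx3y 976, 4.19 and 0 in mice 4, 5 and 6, so the library of mouse 4 had both transcripts high. The labels name 1 mouse for that library. The paper's methods for optic nerve RNA extraction and quantitative PCR used more than 1 mouse per sample. Its sequencing methods do not say whether this held for the libraries. Whether the library of mouse 4 held RNA of more than 1 mouse was not tested. A difference of sex and the effect of the crush cannot be told apart.

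None of the 10 transcripts differed between ON-CR and sham nerves at an adjusted p at or under 0.05 in limma, with 3 mice in each group. Among all 25755 genes, 540 passed, or 2.1%, with 250 higher (0.971%) and 290 lower (1.13%) in ON-CR nerves. At an unadjusted p at or under 0.05, limma gave 2 of the 10, Thy1 and Gap43, beside 15.6% of all genes. Without ON-CR mouse 5, limma again called none of the 10, beside 854 of all genes (3.32%), and 2 of the 10, Thy1 and Nefl, had an unadjusted p at or under 0.05, beside 17.0% of all genes. Of the 10, 9 were fitted higher and 1, Pou4f1, lower, with a median log2 fold change of 0.56 beside 0.03 over all genes, and without ON-CR mouse 5 the median of the 10 was 0.23, with 6 fitted higher. Fold changes are given as ON-CR minus sham on the scale of log2(value + 1), with the standard error (SE). A single transcript in 3 against 3 mice cannot reach an exact two-sided permutation p below 0.1.

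**Figure D1:**
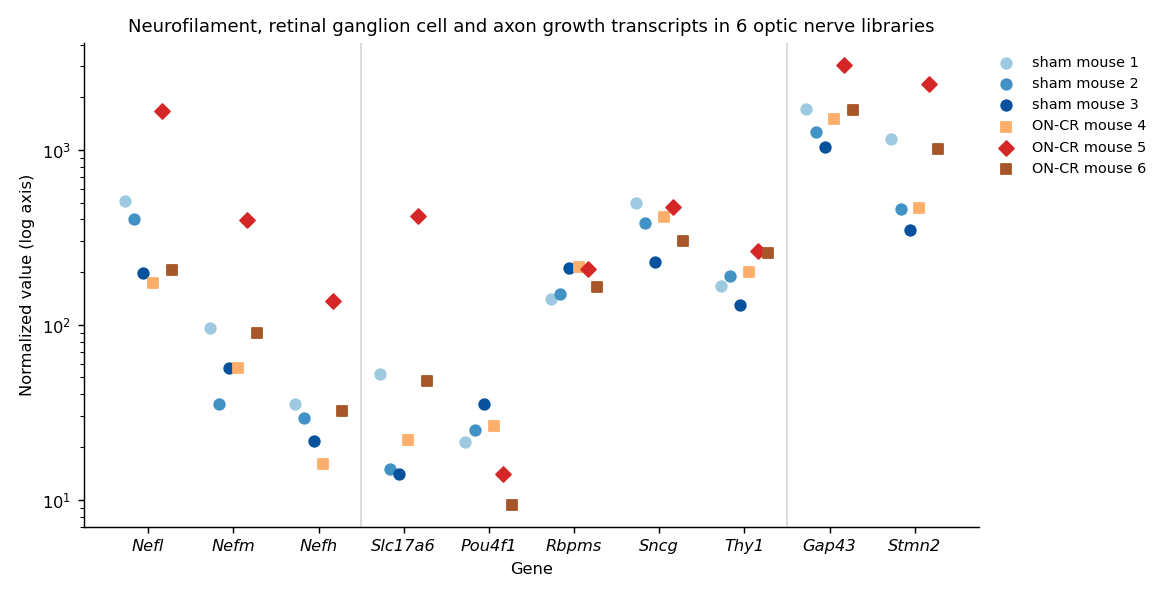
Normalized value of each of the 10 transcripts (log axis) in each of the 6 libraries, with circles for sham mice and squares or a diamond for ON-CR mice, and vertical lines between neurofilament, RGC identity and axon growth genes. The diamond of ON-CR mouse 5 sits highest for 7 of the 10 transcripts, at 1666 for Nefl and 416 for Slc17a6, and within the range of the other mice for Rbpms, Sncg and Pou4f1.

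The neurofilament genes were highest in ON-CR mouse 5 and, outside that library, overlapped between the groups. Nefl, the light chain that neurofilaments need to assemble, had values of 511, 401 and 197 in the sham controls (mice 1, 2 and 3), whereas ON-CR mice 4, 5 and 6 had 173, 1666 and 205. Mice 4 and 6 were thus near sham mouse 3, the lowest control, while mouse 5 was 3.26 times the next library. The means were 370 ± 159 in sham and 681 ± 853 in ON-CR nerves (SD, n = 3 each), and limma gave a log2 fold change of 0.18 (SE 0.72, 95% interval -1.42 to 1.79, adjusted p = 0.933). Without mouse 5 the ON-CR mean was 189 and the direction turned, to a log2 fold change of -0.86 (95% interval -1.58 to -0.14, unadjusted p = 0.0236 and adjusted p = 0.206 in limma). It was also below 0, at -0.21, without sham mouse 3 (adjusted p = 0.934 in limma).

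Nefm, the medium chain, had values of 96.4, 35.4 and 56.3 in the sham controls and of 56.8, 397 and 89.3 after ON-CR. Its means were 62.7 ± 31.0 and 181 ± 187 (SD, n = 3 each), with a log2 fold change of 1.12 (SE 0.62, adjusted p = 0.429 in limma). Only mouse 5 lay above the sham range, and without it the ON-CR mean was 73.1 and the log2 fold change 0.30 (adjusted p = 0.778 in limma). Nefh, the heavy chain, lies at chr11:4938754-4948064 (minus strand) and had values of 35.0, 29.2 and 21.6 in sham controls and of 16.0, 136 and 32.2 in ON-CR mice. Mouse 4 was below every sham mouse, mouse 6 within their range and mouse 5 at 3.89 times the next library. The log2 fold change of Nefh was 0.55 (SE 0.65, adjusted p = 0.742 in limma), and -0.29 without mouse 5 (adjusted p = 0.802).

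Alpha-internexin (Ina), the partner of the chains in central axons, was also highest in mouse 5, at 175, 171 and 116 in sham controls and 111, 497 and 141 in ON-CR mice. Peripherin (Prph), an intermediate filament mainly of peripheral neurons, was low in every library, at 9.39 to 11.5 in sham and 6.98 to 7.34 in ON-CR mice. Its groups did not overlap, but the difference of -0.44 on the log2 scale was far from the threshold (SE 0.47, adjusted p = 0.713 in limma).

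To set the chains side by side, each value was divided by the length of the gene's exons in kb. The sum of Nefl, Nefm and Nefh per kb was 176, 132 and 73.5 in sham controls and 65.2, 595 and 84.0 in ON-CR mice, a difference of means of 120.85 with mouse 5 and of -52.8 without it. Nefl made up 84.9 ± 5.25% of the sum in sham and 77.9 ± 5.43% in ON-CR nerves (SD, n = 3 each, two-sided exact permutation p = 0.2). Nefm made up 9.11 ± 4.32% and 15.0 ± 3.43% (exact permutation p = 0.2), and Nefh 5.95 ± 1.25% and 7.15 ± 2.13% (exact permutation p = 0.5). The groups overlapped for all 3 shares. Leaving out 1 mouse moved these differences: without mouse 5 they were -9.53 percentage points for Nefl, 7.62 for Nefm and 1.91 for Nefh, against -7.08, 5.88 and 1.199 over all 6 mice. Without ON-CR mouse 6 the Nefl difference was -4.16 and the Nefh difference -0.024 percentage points. Without sham mouse 2 the Nefl and Nefm differences were -4.63 and 3.64, and without sham mouse 1 or 3 the Nefh difference was 0.706 or 1.90 percentage points. In mouse 5 the shares were 82.8% Nefl, 11.5% Nefm and 5.73% Nefh, each inside the range of the sham mice, although their sum was 3.37 times that of the next library.

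**Figure D2:**
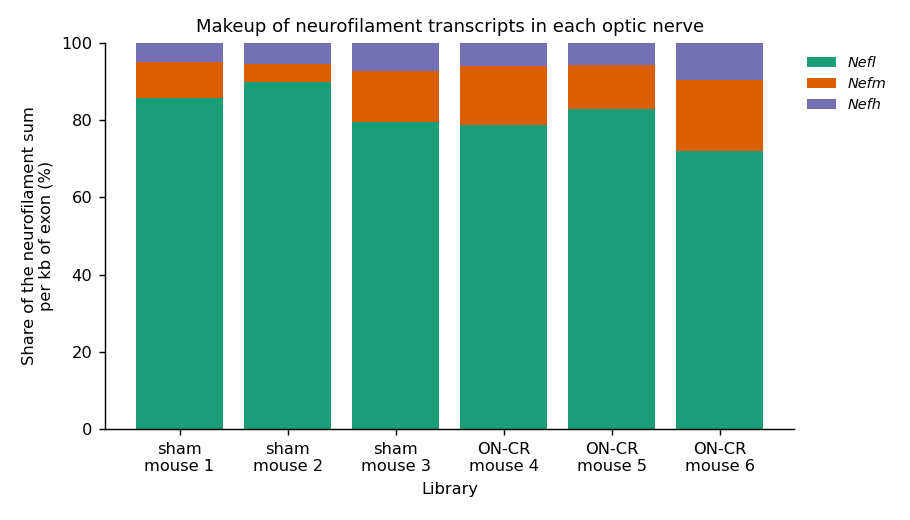
Share of Nefl, Nefm and Nefh in their sum per kb of exon (stacked bars, %), 1 bar for each library. Nefl makes up 79.4% to 89.8% in sham controls and 72.0% to 82.8% in ON-CR mice, with ON-CR mouse 5 at 82.8%.

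Shares between Nefl and Nefm carry a limit that comes from the genome. The genes are neighbours on opposite strands in GRCm38 (mm10), Nefl at chr14:68083863-68089095 on the plus strand and Nefm at chr14:68082590-68124846 on the minus strand. The last exon of the Nefm transcript Nefm-202 runs into the first exon of Nefl, so that 1108 exon bases belong to both (chr14:68083863-68084970), 144 of them coding in both (chr14:68084827-68084970). The stretches below show the edge of the shared bases, 5′ to 3′, from the GENCODE transcripts of GRCm38, which is their end in Nefl and their start in Nefm-202, with the 30 bases common to both (chr14:68084941-68084970, each on its own strand) in capitals.
Nefl-201: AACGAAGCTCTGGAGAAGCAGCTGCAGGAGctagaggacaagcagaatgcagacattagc
Nefm-202: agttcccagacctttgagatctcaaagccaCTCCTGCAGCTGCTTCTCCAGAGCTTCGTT
In Nefl-201 the lower-case bases are the coding sequence that follows, up to chr14:68085000, which Nefm-202 does not contain. In Nefm-202 they are the end of the exon before, at chr14:68115950-68115979. Whether the reads were counted by strand is not given in the sources used here, and without strand a read from the shared stretch cannot be told apart between Nefl and Nefm. None of the other 8 genes shared exon bases with another annotated gene.

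Among the RGC identity genes, Slc17a6, the vesicular glutamate transporter VGLUT2 of RGCs and of many subcortical excitatory neurons, followed the neurofilaments. It lies at chr7:51622006-51671119 (plus strand). Its values were 52.0, 15.1 and 14.1 in sham controls and 21.9, 416 and 47.8 in ON-CR mice. Mouse 5 was 8.0 times the next library, the largest such gap of the 10 transcripts, whereas mice 4 and 6 lay within the sham range. The means were 27.0 ± 21.6 and 162 ± 221 (SD, n = 3 each), with a log2 fold change of 1.73 (SE 0.91, 95% interval -0.31 to 3.76, adjusted p = 0.399 in limma). Without mouse 5 the ON-CR mean was 34.9 and the log2 fold change 0.51 (adjusted p = 0.725 in limma).

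Pou4f1, which encodes the RGC transcription factor Brn3a and lies at chr14:104461676-104467999 (minus strand), was the only member fitted lower. Its values were 21.3, 24.9 and 35.2 in sham controls and 26.4, 14.1 and 9.35 in ON-CR mice. Mice 5 and 6 were below every sham mouse and mouse 4 was inside their range, so mouse 5 did not stand high for this gene. The means were 27.1 ± 7.23 and 16.6 ± 8.82 (SD, n = 3 each), with a log2 fold change of -0.76 (SE 0.46, 95% interval -1.79 to 0.26, adjusted p = 0.472 in limma). Without mouse 5 it was -0.71 (adjusted p = 0.537 in limma). The values of mice 5 and 6 stand for only 13 and 9 estimated reads.

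Rbpms, an RNA-binding protein used as a pan-RGC marker and also made by vascular mural cells, lies at chr8:33782643-33929863 (minus strand). It had values of 140.1, 149.6 and 210.4 in sham controls and of 215, 209 and 164 in ON-CR mice, a spread of 1.54 times between the highest and the lowest library. The groups overlapped, the log2 fold change was 0.25 (SE 0.21, 95% interval -0.22 to 0.71, adjusted p = 0.630 in limma), and mouse 5 was close to mouse 4. Without mouse 5 the log2 fold change was 0.20 (adjusted p = 0.738 in limma). The 11 mural cell genes, with a summed value of 3378 to 4259 in sham and 3427 to 4845 in ON-CR mice, had a median log2 fold change of 0.07 with none called. Their part in the Rbpms values was not tested.

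Sncg, gamma-synuclein, is abundant in RGC axons and lies at chr14:34370274-34374789 (minus strand). It measured 499.8, 381 and 228 in sham controls and 412, 473 and 300.1 in ON-CR mice. Every ON-CR mouse lay inside the range of the sham mice. The log2 fold change was 0.14 (SE 0.27, 95% interval -0.46 to 0.75, adjusted p = 0.855 in limma), and the direction turned in 3 of 17 other settings. Without mouse 5 the log2 fold change was -1.2e-05.

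Thy1, a surface glycoprotein of RGCs that other neurons, T cells and fibroblasts also carry, lies at chr9:44043384-44048579 (plus strand). Its values were 166, 191 and 129.6 in sham controls and 200.4, 265 and 256 in ON-CR mice. It was the only member whose groups did not overlap (1 of 10, beside 21.6% of all genes, 10.5% of them with ON-CR higher). The means were 162 ± 31.0 and 241 ± 35.2 (SD, n = 3 each), and the log2 fold change of 0.57 (SE 0.20, 95% interval 0.13 to 1.02) did not pass after adjustment (unadjusted p = 0.0171 and adjusted p = 0.196 in limma, exact permutation p = 0.1). It stayed positive in each of the 17 other settings, with a log2 fold change of 0.42 to 0.70 and an adjusted p of 0.106 to 0.441 in limma, and was 0.50 without mouse 5.

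Other cells that carry Thy1 were followed by their gene lists, and their part in the Thy1 values was not tested. The pan-neuronal genes summed to 13585 to 23432 in sham controls and to 14462, 56020 and 20174 in ON-CR mice, highest in mouse 5 as Thy1 was. The 8 T cell genes summed to 256, 303 and 674 in sham controls and to 532, 237 and 1534 in ON-CR mice, lowest in mouse 5. All 8 were fitted higher in ON-CR nerves and none was called, and without mouse 5 only Cd3e, a chain of the T cell receptor complex, was (log2 fold change 2.08, SE 0.42, adjusted p = 0.0260 in limma). None of the 10 fibroblast and meninges genes was fitted higher, and their sum was 407630 to 453020 in sham and 309960 to 411040 in ON-CR mice. Ptgds was by far the largest part of each sum, at 368600 to 408350 in sham and 285930 to 373320 in ON-CR mice. The sum therefore mostly follows that 1 gene.

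The axon growth genes were also highest in mouse 5. Gap43, a growth cone phosphoprotein that some glial cells also make, lies at chr16:42248442-42340651 (minus strand) and measured 1713, 1265 and 1039.6 in sham controls and 1509, 3072 and 1695 in ON-CR mice. Mice 4 and 6 lay between the sham mice. The means were 1339 ± 343 and 2092 ± 854 (SD, n = 3 each), with a log2 fold change of 0.60 (SE 0.26, 95% interval 0.02 to 1.18, unadjusted p = 0.0428 and adjusted p = 0.30 in limma). Without mouse 5 it was 0.29 (adjusted p = 0.489 in limma). The astrocyte genes summed to 232430 to 285460 in sham and 313690 to 350040 in ON-CR mice. Gfap was the largest member of this sum, with means of 114860 in sham and 179240 in ON-CR nerves. Of the 10 astrocyte genes 6 were fitted higher, with a median log2 fold change of 0.07. Vim rose (1.26, adjusted p = 0.0030 in limma) and S100b fell (-0.75, adjusted p = 0.0185 in limma). The part of astrocytes in the Gap43 values was not tested.

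Stmn2, the microtubule-binding protein stathmin-2 of growing axons, lies at chr3:8509360-8561606 (plus strand). Its values were 1155, 458 and 347 in sham controls and 464, 2384 and 1014 in ON-CR mice. Sham mouse 1 was thus above ON-CR mice 4 and 6, and the groups overlapped. The log2 fold change was 0.87 (SE 0.55, 95% interval -0.36 to 2.10, adjusted p = 0.495 in limma), and 0.27 without mouse 5 (adjusted p = 0.817).

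**Figure D3:**
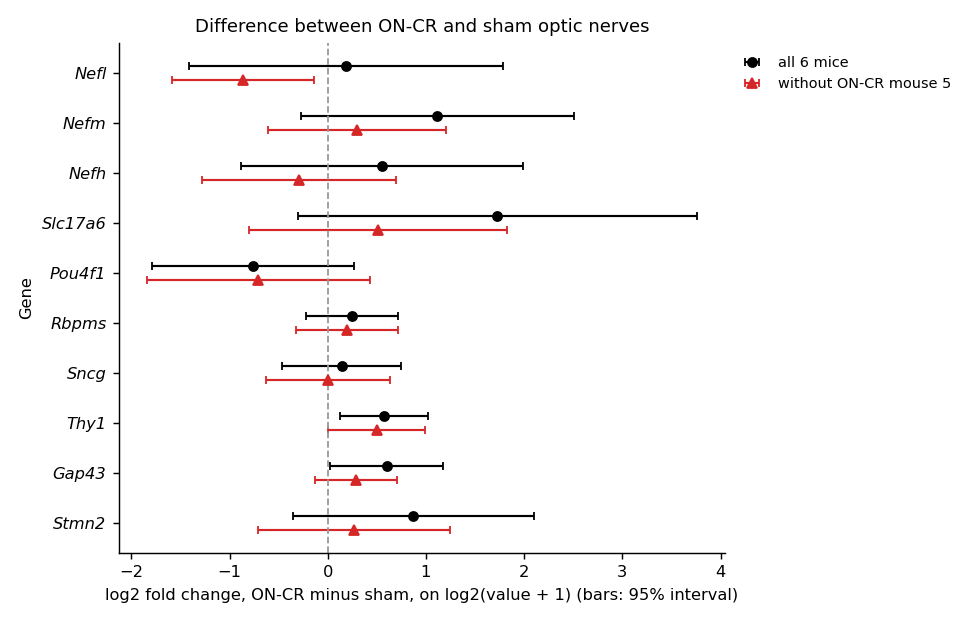
Log2 fold change of each of the 10 transcripts, ON-CR minus sham, on log2(value + 1), with its 95% interval from limma, over all 6 mice (black circles) and without ON-CR mouse 5 (red triangles). Without mouse 5, Nefl moves from 0.18 to -0.86 and Slc17a6 from 1.73 to 0.51, while Thy1 (0.57 and 0.50), Rbpms and Pou4f1 move little.

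By level per kb of exon, Gap43 came first in both groups, at a mean of 879 in sham and 1373 in ON-CR nerves. Sncg followed, at 434 and 463. In sham nerves the order went on with Stmn2 (117), Nefl (109), Thy1 (54.1), Rbpms (25.4), Nefm (10.8), Nefh (7.16), Pou4f1 (5.80) and Slc17a6 (5.01). Neighbours in this order did not overlap for Gap43 over Sncg, Sncg over Stmn2, Thy1 over Rbpms and Rbpms over Nefm, and the others overlapped. The order uses the length of all annotated exons, which for Rbpms is 6556 bases, beside 2547 in its longest transcript. For Thy1 these lengths are 2995 and 1735 bases, and for Nefm 5782 and 3680. The order was not recomputed with the longest transcript, so places and gaps hold for this length only. In ON-CR nerves Slc17a6 moved from the lowest place to the seventh (30.0), beside Nefm (31.3) and Rbpms (29.9), and only Gap43 and Sncg did not overlap as neighbours. This place rested on mouse 5, at 77.1 per kb beside 4.06 and 8.85 in mice 4 and 6. Without mouse 5 the ON-CR means per kb were 6.45 for Slc17a6, in the eighth place, 12.6 for Nefm, 55.9 for Nefl and 76.3 for Thy1, so that Thy1 stood above Nefl.

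Mouse 5 had the highest value of the 6 libraries for 7 of the 10 transcripts, beside 20.6% of all genes. It was at least 2-fold above the next library for 5 of them (Nefl, Nefm, Nefh, Slc17a6 and Stmn2), beside 3.0% of all genes. Genes that most neurons share moved with these 5. The 16 pan-neuronal genes summed to 23432, 13585 and 13719 in sham controls and to 14462, 56020 and 20174 in ON-CR mice. Mouse 5 was highest in 15 of the 16 and at least 2-fold above the next library in 10. The noncoding RNA Meg3 was 3069 to 6424 in sham controls and 21463 in mouse 5, the synaptic vesicle calcium sensor Syt1 was 189 to 327 in sham controls and 1330 in mouse 5, and the neuronal nuclear protein Rbfox3 was 13.1 to 31.8 in sham controls and 147 in mouse 5.

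Genes of neurons whose cell bodies are in the brain moved with them too. The 13 forebrain neuron genes summed to 1380 to 3472 in sham controls, 823 and 1206 in ON-CR mice 4 and 6, and 6387 in mouse 5. Mouse 5 was highest in 10 of the 13 and at least 2-fold above the next library in 5. The interneuron peptide Sst was 659 in mouse 5 and at most 42.4 elsewhere, and the kinase Camk2a 1399 in mouse 5 and 97.7 to 381 elsewhere. Other forebrain genes did not stand out in mouse 5: Vip was 131 there and 669 in sham mouse 1, Tbr1 was 126 there and 110.5 to 187 in sham controls, Cck was 196 there and 254 to 325 in sham controls, and Nrgn was 146 there and 145 in sham mouse 1. The cortical glutamate transporter Slc17a7 was at or near 0 in every library (0 to 5.24). The 16 hypothalamic and preoptic genes summed to 1008 to 5335 in sham controls, 794 and 1887 in mice 4 and 6, and 5524 in mouse 5. Mouse 5 was highest in 13 of the 16 and at least 2-fold above the next library in 6, but not for Lhx1 (132, beside 184 in sham mouse 1). The feeding peptides Cartpt and Agrp were 723 and 218 in mouse 5, beside 32.9 to 116 and 0.885 to 37.2 elsewhere. Without mouse 5, 2 forebrain genes fell, the peptide Cck (log2 fold change -2.09, SE 0.21, adjusted p = 0.000649 in limma) and the calmodulin-binding protein Nrgn (-1.81, SE 0.32, adjusted p = 0.0130). In that fit 3.32% of all genes were called in either direction. Sham mouse 3 had the highest Pomc (4374) but low Slc17a6 and Stmn2.

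The 11 olfactory sensory neuron genes summed to 1226 to 1283 in sham and 1127 to 1361 in ON-CR mice, and the adhesion protein Ncam2, at 526 to 704, was the largest part of each sum. Mouse 5 was at least 2-fold above the next library in 2 of the 11, Gnal (306, beside at most 108 elsewhere) and Gng13 (53.4, beside at most 25.9). The 8 photoreceptor and retina genes summed to 1143 to 1218 in sham and 847 to 1033 in ON-CR mice, with Rlbp1 and Rom1 as the largest members, and mouse 5 was at least 2-fold above the next library in 1 of the 8. With all 6 mice, no gene of the pan-neuronal, forebrain, hypothalamic, olfactory or retina lists was called in limma, and the part of any of them in the neurofilament values was not tested.

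**Figure D4:**
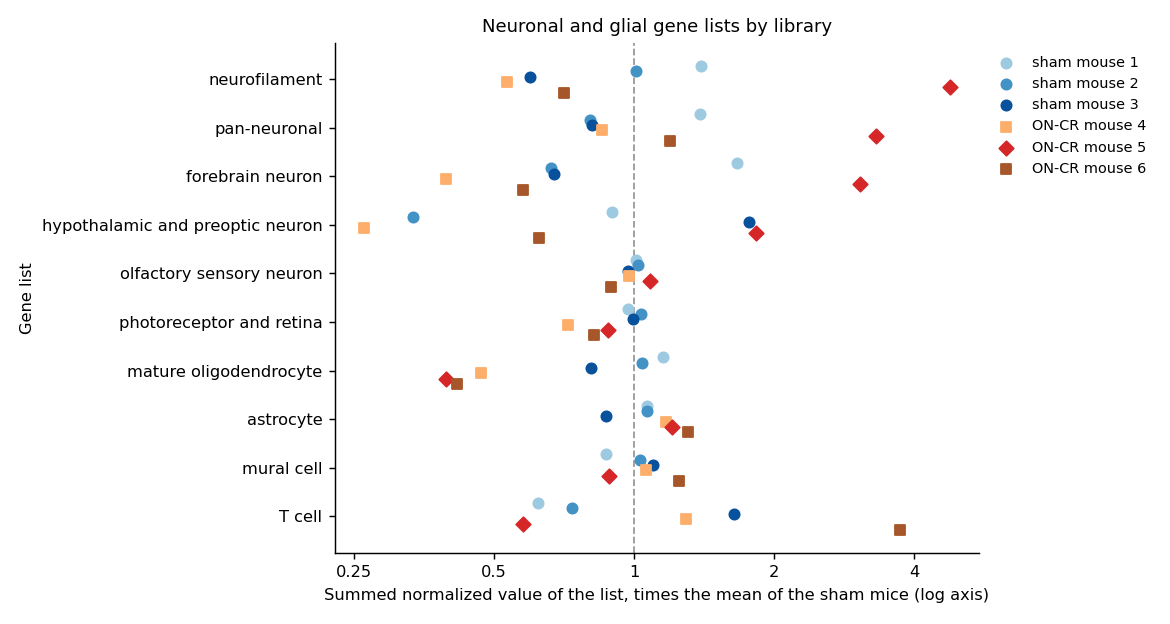
Summed normalized value of gene lists in each library, divided by the mean of the sham mice (log axis), 1 point for each library and a dashed line at the sham mean. ON-CR mouse 5 stands at 4.77 for neurofilaments, 3.31 for pan-neuronal and 3.06 for forebrain genes, and at 1.08 for olfactory and 0.878 for retina genes.

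Set against the pan-neuronal sum, a ratio chosen after the values were seen, the neurofilament sum was 27.4, 34.3 and 20.1 per 1000 in sham controls and 17.0, 39.2 and 16.2 per 1000 in ON-CR mice. Mice 4 and 6 were below every sham mouse and mouse 5 above every sham mouse. With the mean of the pan-neuronal genes as a covariate in limma, also added after the data were seen, the log2 fold change of Nefl was -0.64 (95% interval -1.19 to -0.10, unadjusted p = 0.0245 and adjusted p = 0.195). That of Nefm was 0.43, of Nefh -0.12, of Slc17a6 0.67, of Gap43 0.31 and of Stmn2 0.24, and none of the 10 was called.

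As a description over 6 libraries, which share the high value of mouse 5, Pearson's r of log2(value + 1) was 0.98 between Nefm and Slc17a6, 0.97 between Gap43 and Slc17a6, 0.95 between Gap43 and Stmn2 and 0.94 between Nefl and Nefh. It was 0.79 between Nefl and Nefm. Rbpms had an r of -0.06 with Nefl, and Pou4f1 one of -0.86 with Thy1. Several of these values rested on mouse 5. Over the 5 other libraries r was 0.04 between Nefl and Nefm, 0.72 between Nefl and Nefh, 0.39 between Nefm and Nefh and 0.27 between Nefl and Slc17a6, whereas it was 0.90 between Nefm and Slc17a6, 0.91 between Gap43 and Slc17a6 and 0.98 between Slc17a6 and Stmn2. Rbpms then had an r of -0.88 with Nefl, and Pou4f1 one of -0.85 with Thy1.

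**Figure D5:**
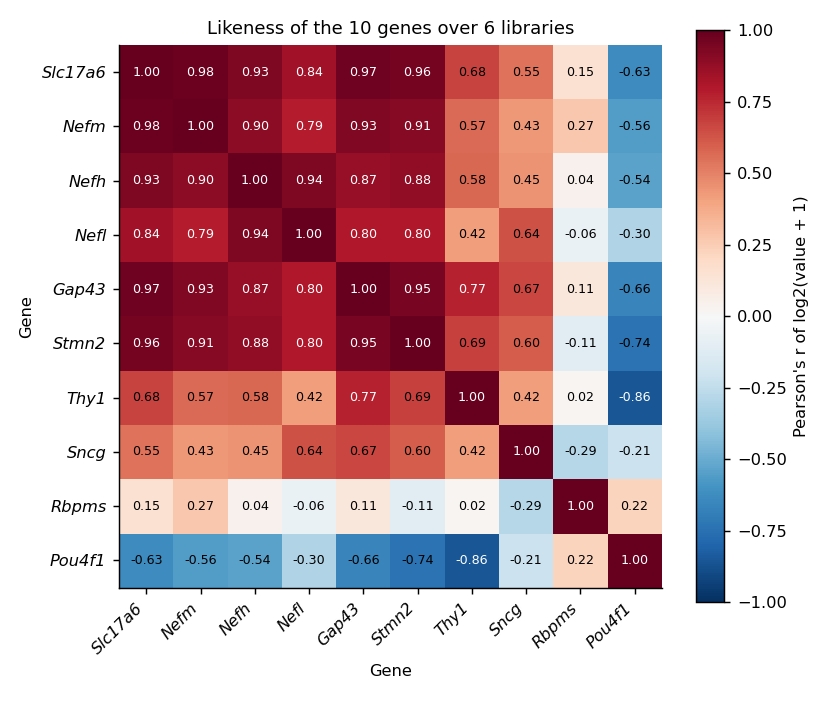
Pearson's r of log2(value + 1) between each pair of the 10 transcripts over the 6 libraries, from blue (-1) to red (1). Slc17a6, Nefm, Nefh, Nefl, Gap43 and Stmn2 share values of 0.79 to 0.98, which without ON-CR mouse 5 are 0.04 to 0.98.

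The genes most like each member were named by the highest r among genes with a mean value of at least 50. For the mean of the neurofilament genes these were Pcbd1 (r = 0.997), the neuronal channel regulator Fgf12, the neuronal splicing regulator Celf6, 5330434G04Rik and Arhgdig (0.993). For Slc17a6 they included Snhg11 (0.998), the vesicle protein Rab3c, Atl1 and the sodium channel Scn2a (0.993). For Gap43 they were Ywhah (0.997), Pnma2, Atmin, Rtn1 and beta-synuclein (Sncb), and for Stmn2 Rasgrp1 (0.997), B630019K06Rik, Cacna2d1, Gng3 and Calm2. For Thy1 they were St8sia4 (0.990), Polr1d, Elfn2, Col4a3bp and Lrriq1, and for Sncg A930017M01Rik (0.985), Mir124-2hg, Prmt5, Cd38 and Dctn6. For Rbpms they were Gm45797 (0.986), Zfp148, Esyt2, Rassf8 and Zfp445, and for Pou4f1 Hps6 (0.990), Ints14, Notch2, Fzd6 and 4930556M19Rik. Without mouse 5, the r of the named genes was 0.947 to 0.983 for the neurofilament mean, 0.970 to 0.993 for Slc17a6, 0.964 to 0.988 for Gap43 and 0.9746 to 0.993 for Stmn2. With 14436 genes at that mean value or above and 6 libraries, such values are a description of the pattern over these mice.

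Other RGC genes gave no call. Of 16 listed, 13 had values in the table, and their median log2 fold change was 0.07 beside 0.03 over all genes, with 7 fitted higher. Rbpms2, a paralog of Rbpms, was 114 to 142 in sham and 152 to 177 in ON-CR mice (log2 fold change 0.29, adjusted p = 0.497 in limma), and Ebf3 was 12.7 to 25.7 and 35.9 to 41.5 (1.08, adjusted p = 0.185). Parvalbumin (Pvalb) was 110.4 to 212 in sham and 51.7 to 93.7 in ON-CR mice (-0.89, adjusted p = 0.207 in limma). The melanopsin gene Opn4, of light-sensing RGCs, was 8.85 to 14.9 in sham controls and 29.9, 27.3 and 3.12 in ON-CR mice 4, 5 and 6, without separating the groups. Isl1, a factor of RGCs and of hypothalamic neurons, was 134, 16.8 and 121 in sham and 5.98, 338 and 19.7 in ON-CR mice.

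Of 26 genes of the axonal cytoskeleton and axonal transport, 2 fell and none rose, beside 1.13% and 0.971% of all genes. The median log2 fold change was 0.00, beside 0.03 over all genes. Klc1, a kinesin light chain that links the motor to its cargo, went from 2272 ± 356 to 1026 ± 232 (SD, n = 3 each, log2 fold change -1.16, SE 0.18, adjusted p = 0.0117 in limma). Stmn4, a stathmin relative of Stmn2 that oligodendrocytes also make, went from 11009 ± 1275 to 6257 ± 1197 (-0.83, SE 0.15, adjusted p = 0.0257). Stmn4 was lowest in mouse 5 (4975), where Stmn2 was highest. Beside these, 9 of the 12 mature oligodendrocyte genes fell and none rose, their sum being 1311200 to 1868700 in sham and 639590 to 759490 in ON-CR mice, and the part of this in Klc1 and Stmn4 was not tested. Without mouse 5, 3 genes of the list fell, Klc1, Stmn4 and the neuronal motor Kif5a (-0.97, SE 0.22, adjusted p = 0.0380 in limma). In that fit 3.32% of all genes were called in either direction. Kif5a was 1655 to 2774 in sham controls and 1155, 2426 and 889.9 in ON-CR mice, and the neuronal tubulin Tubb3 was 2942 to 3370 in sham controls and 1762, 4661 and 3782 in ON-CR mice. Klc1 lost its call without sham mouse 1 (adjusted p = 0.0575 in limma), sham mouse 2 (0.0826) or ON-CR mouse 6 (0.0593). Stmn4 lost it without sham mouse 1 (adjusted p = 0.104), 2 (0.158) or 3 (0.0545) or ON-CR mouse 6 (0.155 in limma).

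Of 25 genes of the response to axon injury and of regeneration, 3 rose and 1 fell, beside 0.971% and 1.13% of all genes. The median log2 fold change was 0.46, beside 0.03 over all genes. The groups did not overlap for 12 genes with ON-CR higher and 1 with ON-CR lower, beside 10.5% and 11.0% of all genes. Because this list, like the others, was chosen with earlier results of these data known, these shares are a description and no test of the list. Atf3, a transcription factor induced in injured neurons and in stressed cells of other types, was 35.0, 46.0 and 47.0 in sham controls and 183, 129.99 and 292 in ON-CR mice, a log2 fold change of 2.15 (SE 0.31, adjusted p = 0.00733 in limma). All 3 ON-CR mice were above every sham mouse, with mouse 5 the lowest of them. Cntf, a neurotrophic factor made by astrocytes and Schwann cells, rose from 146 ± 23.2 to 360 ± 84.8 (SD, n = 3 each, 1.28, SE 0.21, adjusted p = 0.0132), and Tnfrsf12a, the TWEAK receptor, from 362 ± 37.7 to 834 ± 249 (1.17, SE 0.20, adjusted p = 0.0190). The small heat shock protein Hspb1 fell from 411 ± 124 to 121 ± 25.1 (-1.73, SE 0.25, adjusted p = 0.00814).

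Without mouse 5, 6 rose and 1 fell, with Socs3, Ddit3 and Bdnf added to those that rose, beside 3.32% of all genes called in either direction. Sprr1a, Gal, Ecel1 and Sox11, which injured RGCs are known to switch on, did not separate the groups. Sprr1a was 17.0, 0 and 0 in sham controls and 0.997, 2.10 and 11.4 in ON-CR mice. The neuropeptide Gal was 71.4 to 153 in sham controls and 57.8, 361 and 140.2 in ON-CR mice, and Ecel1 was 18.6 to 35.0 in sham controls and 7.98, 169 and 19.7 in ON-CR mice. Sox11 was 170.2 to 598 in sham and 358 to 604 in ON-CR mice. When each mouse was omitted, Atf3 lost its call only without ON-CR mouse 6 (adjusted p = 0.0645 in limma), and it also lost it in limma with no mean-variance trend (adjusted p = 0.139). Cntf lost it without sham mouse 1 (adjusted p = 0.0585), 2 (0.0530) or 3 (0.0586) or ON-CR mouse 6 (0.0968), and Tnfrsf12a without sham mouse 1 (adjusted p = 0.0828), 2 (0.0759) or 3 (0.0868) or ON-CR mouse 6 (0.0906). Hspb1 lost it without sham mouse 2 (adjusted p = 0.0591) or 3 (0.0537) or ON-CR mouse 6 (0.0869).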

How the data were processed

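Optic nerve RNA of 6 mice was grouped by the sample labels into 3 sham and 3 ON-CR libraries. Libraries came from a low-input SMARTer kit. Alignment and quantification by the authors used DRAGEN, and median normalization of gene counts on mm10 Ensembl annotation was done in Partek Flow 10.0 (version per the submitters' processing notes). The deposited unit is therefore signal: each library's estimated reads per gene over 1 common factor. Dividing by the value of 1 read gave whole reads for 66.4% to 69.0% of values (tolerance 0.02 read), so no count model was run. The lowest gene had 10 estimated reads over all libraries.

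The main test was limma 3.58.1 (R 4.3.3) on log2(value + 1), using a mean-variance trend, no filter and Benjamini-Hochberg adjustment over 25755 genes, and called at an adjusted p at or under 0.05. Each p in the text is from limma unless a permutation test is named. A limma p sets the difference between groups against the spread between the mice of a group, moderated by a trend over all genes. Tested on simulated data of 25755 genes, limma recovered 200 of 200 genes changed 4-fold with their sign, beside 13 false calls. It made 0 calls where no gene was changed. Smaller changes were not simulated. In the real ON-CR libraries the SD was 125% of the mean for Nefl, 104% for Nefm, 106% for Nefh and 136% for Slc17a6. Whether limma would recover changes in genes with such a spread was not tested, so the simulation does not bear on the lack of calls among the members. The 3-read floor was a value of 2.66 to 3.18 and covers counting error only.

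Positions, exon lengths and sequences are from GENCODE M21 on GRCm38. Named genes were the 10 members, genes of the lists, and the 5 most like each member pattern. The members and lists were chosen with earlier results of these data known. Lists of oligodendrocyte precursors, microglia, endothelial, Schwann, skeletal muscle and peripheral neuron genes were also summed. Alternatives changed the scaling, pseudocount, filter, variance model and mice used. Results for some genes are not reported here.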

Additional observations from a re-analysis of the deposited data

How the results depend on the processing

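The tests over all genes were run in 17 other settings, 1 of them, the pan-neuronal covariate, chosen after seeing the data, and the neurofilament sum and shares in 7. The order per kb and the correlations were recomputed without ON-CR mouse 5 only, also after seeing the data, and the ratio to the pan-neuronal sum in no other setting. None of the 10 members was called in any of them. The genes called among all 25755 numbered 540 as reported, 7 with no mean-variance trend, 1009 with the pan-neuronal covariate, and 67 to 854 over the fits that leave out a mouse. Scaling by the library total only moved the median log2 fold change of all genes from 0.03 to 0.15 and the calls from 250 higher and 290 lower to 421 higher and 195 lower. Of the axonal cytoskeleton and transport genes 0 were called with no trend, and 0 to 3 with a mouse left out. Of the injury and regeneration genes 7 were called by library total only, 7 with array quality weights, 0 with no trend, and 0 to 7 with a mouse left out.

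The direction turned for Sncg (-0.025 with the covariate, -0.17 to 0.40 with a mouse left out), Nefl (-0.24 with array quality weights, -0.64 with the covariate, -0.86 to 0.77 with a mouse left out) and Nefh (-0.12 with the covariate, -0.29 to 1.22 with a mouse left out), all as log2 fold changes. For Nefl the mice concerned were ON-CR mouse 5 (-0.86) and sham mouse 3 (-0.21). The neurofilament sum per kb differed by -52.8 to 212 with a mouse left out and by 133 with the longest transcript as length. The shares differed by -9.85 to -4.16 (Nefl), 3.64 to 7.95 (Nefm) and -0.024 to 1.91 (Nefh) percentage points with a mouse left out. The cause of these changes was not tested. Pou4f1 and Nefh have no value with the filter at a mean of 50, which leaves them out.

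No paired analysis was possible because the mice are numbered 1 to 3 in the sham and 4 to 6 in the ON-CR group and share no number. No outlier test was run in groups of 3. The fits that leave out each mouse were fixed at the start, but ON-CR mouse 5 was singled out after its values were seen. Pou4f1, at 9 to 37 estimated reads, is limited most by depth.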

Other observations

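The quality weight that limma estimated for each library was lowest for ON-CR mouse 5 (0.613), beside 0.920 to 1.48 for the other 5 libraries. The neuronal lists spread within the sham group as well. Sham mouse 1 had the highest pan-neuronal sum of the controls (23432 beside 13585 and 13719) together with the highest Nefl, Nefm, Nefh, Slc17a6, Gap43, Stmn2 and Sncg of the controls, and Vip was 669 in sham mouse 1, 6.20 and 0.939 in the other controls. ON-CR mouse 6 had the highest T cell sum (1534) and the fewest Pou4f1 reads (9).

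The peripheral neuron list, with 8 of 18 genes in the table, gave no call, and its sum was 3051 to 3470 in sham and 1855 to 5377 in ON-CR mice. Most of each sum was the neuronal tubulin Tubb3, at 2942 to 3370 in sham and 1762 to 4661 in ON-CR mice. Tubb3 is also in the axonal cytoskeleton list, so the sum says little about peripheral neurons. The Schwann cell list, also without a call, summed to 8739 to 10824 in sham and 6660 to 9428 in ON-CR mice, and the skeletal muscle list to 227 to 407 and 159 to 204. Of the 10 microglia genes 4 rose and none fell, beside 0.971% and 1.13% of all genes, with sums of 19829 to 25745 and 27165 to 42839. The endothelial list (sums of 3693 to 4239 and 3284 to 4091) and the oligodendrocyte precursor list (8300 to 9342 and 6682 to 7981) gave no call. Of the 10 astrocyte genes 1 rose and 1 fell.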
